A study of Mus musculus with 4 samples.

Results

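The 10 genes described here encode intermediate filament proteins other than keratins. They are the type III proteins vimentin (Vim) and desmin (Des), the type IV proteins nestin (Nes), synemin (Synm) and the neurofilament light, medium and heavy chains (Nefl, Nefm and Nefh), and the nuclear lamins (Lmna, Lmnb1 and Lmnb2). They were taken by name from the deposited count table, where all 10 of them had a row among 24907 genes. The libraries came from ASZ001, a cell line of a mouse basal cell carcinoma (BCC), and the study concerns how basal cell tumours turn into squamous ones. In the c-FOS group (2 libraries) the cells carried a doxycycline-inducible vector with the transcription factor c-FOS, and in the control group (2 libraries) the same kind of vector without an insert. Both groups received doxycycline, and there was no group of c-FOS vector cells without it. The induction of c-FOS and any other difference between the cell populations cannot be told apart. The labels do not say whether the libraries of a group are separate cultures, and the p-values reflect only how far these libraries scatter, which may be technical error.

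Intermediate filaments are built from rod-shaped proteins that pair as coiled coils and bundle into ropes. Epithelial cells fill their cytoplasm mainly with keratins, whereas vimentin is the usual filament of fibroblasts and other mesenchymal cells and is a standard marker of epithelial cells that take on mesenchymal traits. Desmin belongs to muscle, nestin to neural progenitors, and the neurofilament chains to neurons, while synemin does not form filaments by itself and joins those of vimentin or desmin. The lamins line the inside of the nuclear envelope. Lmna gives rise to lamins A and C by splicing and is more abundant in stiff and differentiated tissues. The B-type lamins from Lmnb1 and Lmnb2 stay attached to the membrane.

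Vim gave the greatest difference among the members, and its promoter is printed for that reason. RefSeq windows of 300 bases ran from 250 before to 50 after an annotated start (GRCm38.p6). They were read for 6 members with 8 windows (1 each for Vim, Des, Nes and Synm, and 2 each for Lmna and Lmnb2). Windows on 1 chromosome were left out of this search, and none was read for Lmnb1, Nefl, Nefm or Nefh. Nothing is said here about the promoters of those genes. The 250 bases before the Vim start are at chr2:13574061-13574310 on the plus strand, and capitals mark the letters TATAAA and CCAAT on either strand (the second reads ATTGG on the other strand).
Vim: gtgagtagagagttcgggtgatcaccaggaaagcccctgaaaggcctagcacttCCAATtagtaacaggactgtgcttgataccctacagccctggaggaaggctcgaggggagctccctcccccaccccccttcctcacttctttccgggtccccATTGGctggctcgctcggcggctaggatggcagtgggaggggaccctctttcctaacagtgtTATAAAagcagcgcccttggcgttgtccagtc
The TATAAA of Vim starts at position -32 from the annotated start, and 13.6% of all 32851 RefSeq windows hold these letters on either strand. CCAAT or ATTGG starts at -196 and -94 in Vim, and 37.4% of all windows hold one. The letters TGANTCA, which include the AP-1 site TGACTCA bound by FOS-JUN dimers and read the same on both strands, are in 7.81% of all windows. They were not in the Vim window, and among the 8 windows they occurred in 1, downstream of an annotated Lmna start, at position 40 on the minus strand. The stretch of 30 bases around it, at chr3:88503303-88503332, has the match in capitals.
Lmna: gcctctgcctggctgtcagTGACTCAgtgt
These matches describe the printed letters only, and no measurement of binding enters here.

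The deposited totals were 29200592 and 32465409 counts in the c-FOS libraries and 28405433 and 29822437.5 in the control libraries. Fos, the gene in the vector, averaged 305.0 ± 11.8 counts-per-million (CPM) in c-FOS cells and 0.377 ± 0.0369 CPM in control cells (SD, n = 2 each), so both groups went with their labels. Keratinocyte markers were abundant in both, with summed levels of 12024 and 12569 CPM in the c-FOS libraries and of 25792 and 25784 CPM in the control libraries. Of these 7 markers, 6 fell and Epcam did not pass, except as lower with library totals. Over all 12791 genes that passed the filter on low counts, 67.1% passed the quasi-likelihood test of edgeR at a Benjamini-Hochberg adjusted p of 0.05, 33.8% as higher and 33.3% as lower in c-FOS cells. Of the genes called, 50.3% were higher, and 35.4% when scaled by library totals instead of TMM, a scaling that moved the median log2 fold change of all genes to -0.14, against -0.01 with TMM.

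With c-FOS, Vim rose to the second highest level per length among the members, Lmna rose as well, and Lmnb1, Lmnb2 and Synm fell. The other 5 members were at or close to 0 counts in both groups. The 5 members with appreciable counts each had more than 10 in every library and passed the filter, and all 5 passed the test, 2 as higher and 3 as lower, beside 67.1% of all genes. In these 5 the groups did not overlap, beside 83.6% of all tested genes. The c-FOS libraries were both above the control libraries in 2 of them, beside 41.5% of all genes, and both below in 3, beside 42.1%. Of the members, 1 (Vim) was called and at least 2-fold higher, beside 7.73% of all genes, and 1 (Lmnb1) was called and at least 2-fold lower, beside 7.71%. Passing the test was thus common in this comparison. By size, Vim had rank 5 from the highest of 12791 fold changes.

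**Figure D1:**
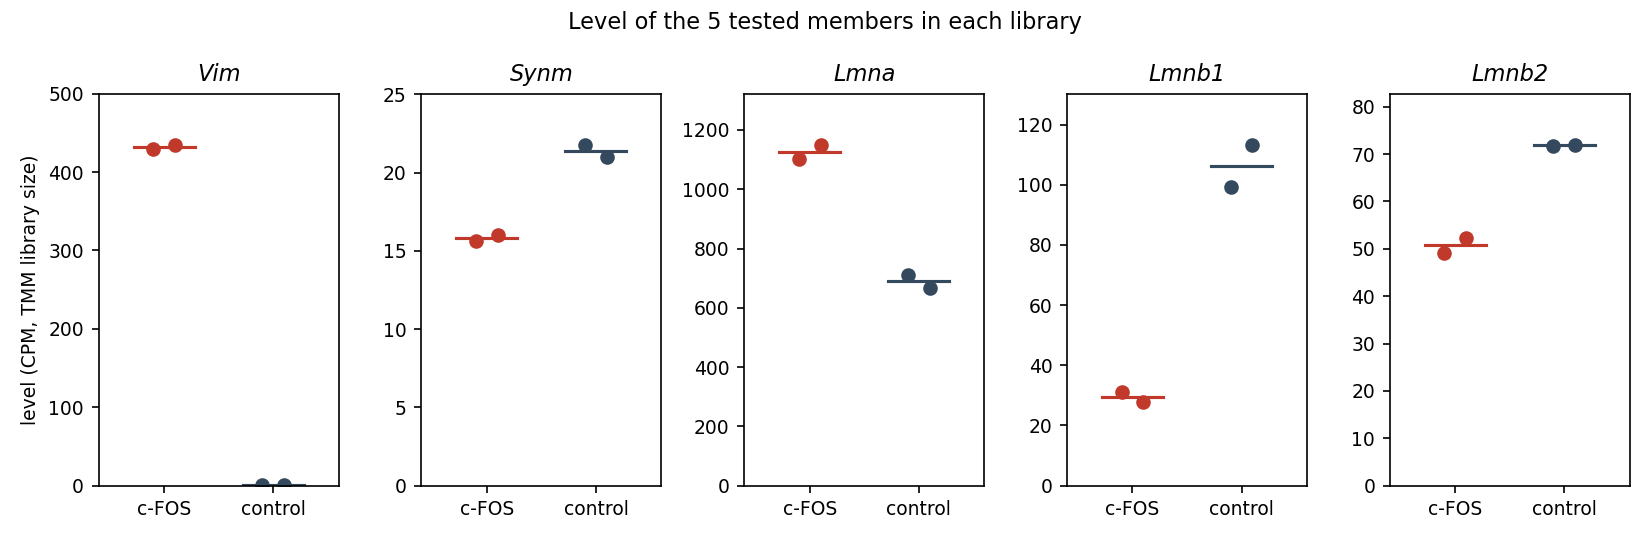
Level in CPM (y axis from 0, TMM library size) of the 5 tested members in each library, with the c-FOS libraries at the left and the control libraries at the right of each panel; points are libraries and lines are group means (n = 2). Vim and Lmna are higher in both c-FOS libraries, and Synm, Lmnb1 and Lmnb2 are lower, with no overlap between groups.

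Vimentin transcripts were nearly lacking in control cells. Vim was counted 11931.5 and 13475.5 times in the c-FOS libraries, against 16.5 and 22.5 times in the control libraries. Both c-FOS libraries were thus far above both control libraries. The levels were 428.8 and 434.9 CPM in the c-FOS libraries and 0.571 and 0.734 CPM in the control libraries, with means of 431.9 ± 4.36 and 0.653 ± 0.115 CPM (SD, n = 2 each). The log2 fold change was 9.36, a ratio of 655 (edgeR, quasi-likelihood, Benjamini-Hochberg adjusted p = 1.95e-17). The control value rests on 39 counts in all, which limits the fold. The ratio of the summed rounded counts had an exact 95% counting interval of 484.3 to 923.5, and DESeq2 gave 9.37 ± 0.23 (SE) on the log2 scale. The SE derived from edgeR's F statistic, 0.08, is smaller than the counting error.

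**Figure D2:**
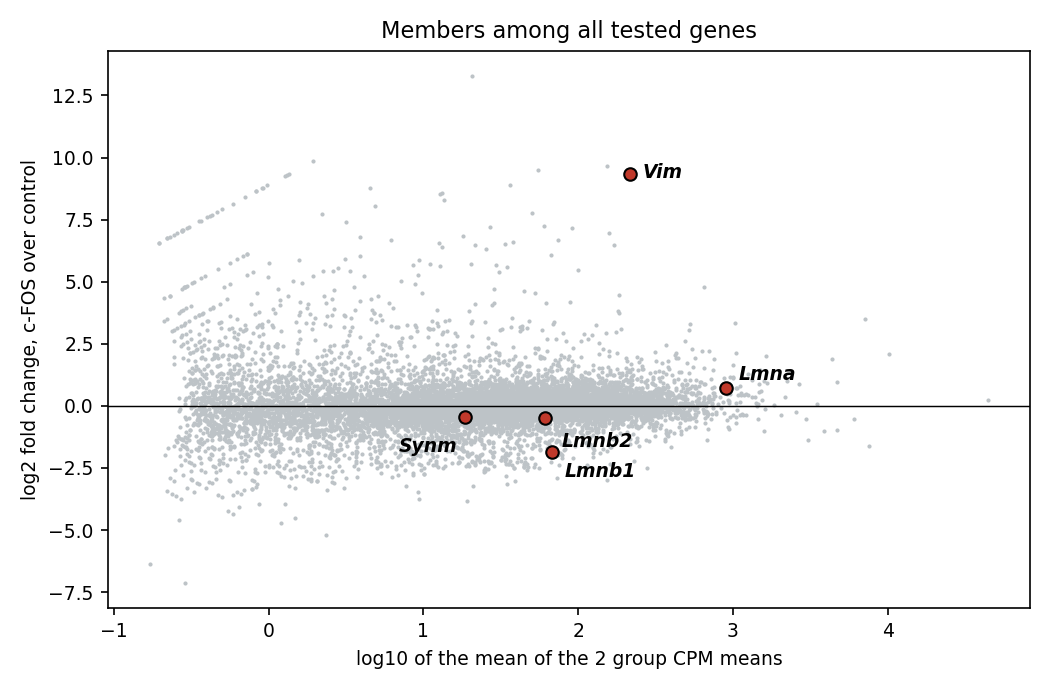
Log2 fold change, c-FOS over control (y axis), against the log10 of the mean of the group CPM means (x axis) for all 12791 tested genes in grey, with the 5 tested members in red. Vim lies at 9.36, and the other 4 lie between -1.85 and 0.71.

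The genes with the most similar profile to Vim were found by the distance between log2 CPM values over the 4 libraries. Each gene was centred on its own mean. A prior count of 2 was added before the log, which sets the value of genes at or near 0 counts. The nearest were Nlrp2, which encodes an inflammasome-family protein, at a distance of 0.248, Col6a3, a collagen VI chain, at 0.300, and Fos itself at 0.405. Nlrp2 averaged 110.7 CPM in c-FOS cells and 0.147 CPM in control cells. Col6a3 averaged 41.4 CPM in c-FOS cells and had 0 counts in both control libraries, so its distance rests on the added counts. Set against a floor of 3 counts for the whole control group, it was at least 846-fold higher. Uchl1 at 1.57 and Col5a3 at 1.62 came next and were already much farther away. With 4 libraries in 2 groups, such a distance reads mainly the size of the difference.

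Vimentin is a marker of fibroblasts and other mesenchymal cells, so other markers of those cells are given beside it. Of 8 fibroblast markers, 4 passed the filter, and of these 3 rose, beside 33.8% of all tested genes higher. With all 4 libraries, Col1a1 did not pass (log2 fold change 0.83). Its fold was 1.44 without control replicate 1. The 8 markers summed to 17.7 and 19.2 CPM in the c-FOS libraries and to 5.45 and 5.68 CPM in the control libraries. This summed level was far below that of Vim in c-FOS cells. Pdgfra, a receptor for platelet-derived growth factor, accounted for much of it, with 11.6 ± 0.369 CPM in c-FOS cells and 4.24 ± 0.00736 CPM in control cells (SD, n = 2 each). Col1a2, a chain of type I collagen, had 3.44 ± 0.652 CPM in c-FOS cells and 0.539 ± 0.0961 CPM in control cells. Pdgfrb, which had 0 counts in both control libraries and passed the filter through the c-FOS group, was by the same floor at least 54.7-fold higher. A call of Pdgfrb could thus only be higher. The defining marker Thy1 was at 0 in all 4 libraries, Col3a1 and Lum had at most 1 count in any of them, and Dcn had 4 and 3.5 counts in the c-FOS libraries and 8.5 and 18.5 in the control libraries. Dcn passed as lower with no filter and without control replicate 1, but not in DESeq2.

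Factors that repress epithelial genes in mesenchymal transition had members in both directions. Of 6 such genes, 5 were tested, and 4 rose while 1 fell, beside 33.8% of all genes higher and 33.3% lower, with a median log2 fold change of 2.36, against -0.01 over all tested genes. Of the 4, Snai1 passed the filter only through the c-FOS group. At a minimum count of 50, which leaves it out, 3 of 4 rose and the median was 1.68. Zeb1 averaged 75.7 ± 0.00509 CPM in c-FOS cells and 8.41 ± 0.342 CPM in control cells, and Zeb2 averaged 63.1 ± 0.574 CPM in c-FOS cells and 12.3 ± 0.0325 CPM in control cells (SD, n = 2 each). Twist1 rose by 1.02 on the log2 scale. Snai1, again with 0 counts in both control libraries, was by the floor of 3 counts at least 37.0-fold higher. The list's median was 2.36 with Snai1 at that bound too. Snai2, which basal keratinocytes also express, fell by 0.94 on the log2 scale. Twist2 did not pass the filter, with 7 and 11 counts in the c-FOS libraries and 2 and 1 in the control libraries. It passed as higher with no filter and without control replicate 1, but not in DESeq2.

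Synemin, which joins vimentin and desmin filaments, did not go with Vim. Synm stood at 15.6 and 16.0 CPM in the c-FOS libraries and at 21.8 and 21.0 CPM in the control libraries. Both c-FOS libraries were lower than both control libraries. The log2 fold change was -0.43 ± 0.08 (SE) (edgeR, quasi-likelihood, Benjamini-Hochberg adjusted p = 0.000179). Synm overlaps Ttc23 on the opposite strand in the GENCODE annotation, and no source used here gives the strand setting of the counting. Reads from a stretch that both genes share cannot be told apart, and whether their exons overlap was not examined. Ttc23 was lower too, at 38.8 CPM in c-FOS cells and 45.6 CPM in control cells.

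The muscle and neural filament genes stayed at the limit of detection. Des, the muscle filament, had 0 and 2 counts in the c-FOS libraries and 2 and 0 in the control libraries. Nes, the filament of neural progenitors, had 3.5 and 3 counts in the c-FOS libraries and 4.5 and 2 in the control libraries, which sums to 6.5 in each group. Nefl, Nefm and Nefh had 0 counts in all 4 libraries. A count of 0 allows a level of up to 0.0510 CPM over the c-FOS libraries and 0.0491 CPM over the control libraries (3 counts over the group, counting error only). None of these 5 genes passed the filter. With no filter, Des (log2 fold change 0.04) and Nes (0.05) did not pass the edgeR test, and DESeq2 did not call Nes either (0.06). No difference was detectable at this depth.

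Markers of muscle and neurons were read beside them. The muscle factors Myod1 and Myog were at 0 in all 4 libraries. The 7 muscle markers summed to 1.11 and 0.936 CPM in the c-FOS libraries and to 0.706 and 1.02 CPM in the control libraries. Mylpf alone passed the filter and made up most of this, at 0.934 and 0.678 CPM with c-FOS and 0.403 and 0.734 CPM in control. With all 4 libraries it did not pass the test (log2 fold change 0.48). The fold was 0.12 without control replicate 1 and 0.98 without control replicate 2. Of 8 neuronal markers, Snap25 was at 0 throughout, and 2 passed the filter and rose, beside 33.8% of all tested genes higher. These were the tubulin gene Tubb3, with 215.4 ± 6.75 CPM in c-FOS cells and 29.6 ± 0.959 CPM in control cells (SD, n = 2 each), and the microtubule-associated protein gene Map2, by 0.28 on the log2 scale. The neuronal genes Elavl3, Elavl4 and Rbfox3 had at most 1 count in any library. Stmn2 had 3.5 and 7 counts in the c-FOS libraries and 0 and 1 in the control libraries, and passed as higher with no filter but not in DESeq2. Syp had 4 and 4 counts in the c-FOS libraries and 10 and 8.5 in the control libraries. Among 8 Schwann cell and melanocyte markers, 2 passed the filter and none the test (Pmel passed as lower with library totals), and their summed level lay between 1.01 and 1.40 CPM over the 4 libraries. Pecam1 was the only one of 4 endothelial markers that passed the filter, and it rose by 0.31 on the log2 scale. The endothelial receptors Kdr and Tie1 were at 0 throughout. Of 5 leukocyte markers, Csf1r (18.4 CPM in c-FOS cells and 0.313 CPM in control cells) and Cd68 (14.3 CPM in c-FOS cells and 11.1 CPM in control cells) rose, the second not when c-FOS replicate 2 was left out. Csf1r had 11.5 and 7 counts in the control libraries and passed the filter through its c-FOS counts. Its call therefore supports nothing beyond these counts. The leukocyte gene Ptprc had at most 2.5 counts in any library, and Cd3e had 0.

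Of 8 further non-keratin filament genes outside the 10 members, 4 passed the filter. Iffo2, a filament-family gene of little known function, was the abundant one and fell, with 113.5 ± 2.19 CPM in c-FOS cells and 215.3 ± 9.68 CPM in control cells (SD, n = 2 each). Sync, which encodes the desmin-binding protein syncoilin, had 25 and 21.5 counts in the c-FOS libraries and 0 in both control libraries, which by the floor of 3 counts is at least 16.3-fold higher. Gfap, the filament of astrocytes, had 18.5 and 12 counts in the c-FOS libraries and 0 and 1 in the control libraries, a ratio of 32.2 with an exact 95% counting interval of 5.36 to 1312. Both stayed under 1 CPM and passed the filter through their c-FOS counts, so a call could only be higher and supports nothing beyond these counts. Neither was tested at a minimum count of 50, nor Gfap without c-FOS replicate 1. The lens gene Bfsp1 did not pass, with 17 and 14.5 counts in the c-FOS libraries and 17 and 4.5 in the control libraries, although it passed as higher when control replicate 1 was left out. Prph, Ina, Bfsp2 and Iffo1 did not pass the filter and had at most 4 counts in any library.

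Levels of different genes were compared per length, as reads-per-kilobase-per-million (RPKM) from the deposited lengths and library totals. In c-FOS cells the order was Lmna at 340.0 ± 10.7 RPKM, Vim at 225.9 ± 2.51, Lmnb2 at 14.4 ± 0.684, Lmnb1 at 9.92 ± 0.771 and Synm at 1.92 ± 0.0329 RPKM (SD, n = 2). In control cells it was Lmna at 228.9 ± 9.70 RPKM, Lmnb1 at 39.4 ± 3.78, Lmnb2 at 22.5 ± 0.0844, Synm at 2.85 ± 0.0704 and Vim at 0.366 ± 0.0673 RPKM (SD, n = 2). No neighbours in either order overlapped between libraries. Vim was thus last of the 5 in control cells and second in c-FOS cells, and Lmnb1 stood above Lmnb2 in control cells and below it in c-FOS cells.

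**Figure D3:**
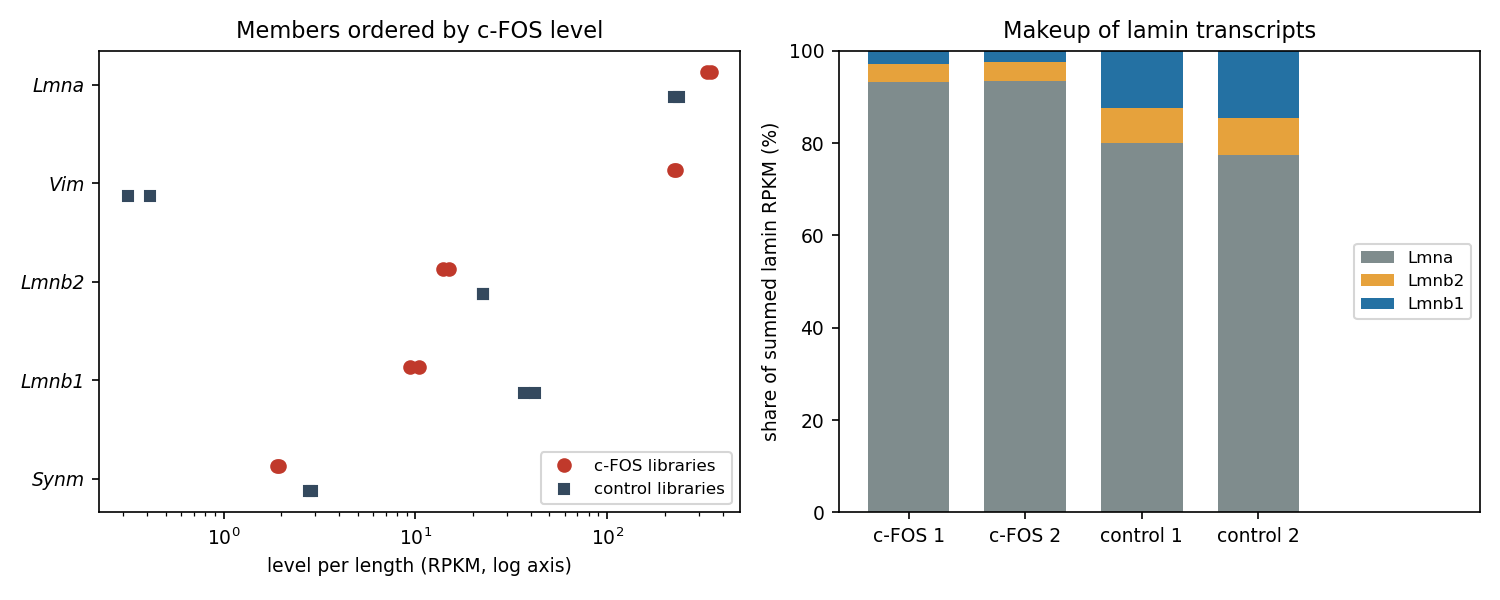
Left, level per length in RPKM (log axis) of the 5 tested members, with c-FOS libraries as red circles above and control libraries as dark squares below in each row. Right, share (%) of Lmna, Lmnb2 and Lmnb1 in the summed lamin RPKM of each library; the B-type share is 6.83 and 6.53% in the c-FOS libraries and 20.0 and 22.5% in the control libraries.

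Keratins remained the bulk of the cytoplasmic filament transcripts in both groups. Vim made up 3.39 and 3.28% of the summed RPKM of the 7 cytoplasmic members and 55 keratin rows in the c-FOS libraries, against 0.00220 and 0.00288% in the control libraries. The difference was 3.33 percentage points, and the exact two-sided permutation test over the 4 libraries gave p = 0.333, the smallest p that 2 against 2 libraries allow. The keratin sum was 6388 and 6721 RPKM in the c-FOS libraries and 14461 and 14343 RPKM in the control libraries. Keratin transcripts outnumbered those of Vim 28.5 and 29.5 times per length in the c-FOS libraries, against 45383 and 34658 times in the control libraries. Keratin genes are close in sequence, and reads that they share could be split between them, which touches single keratins more than their sum. The keratins of simple epithelia, Krt7, Krt8, Krt18 and Krt19, which many glandular epithelia use, did not pass the filter, and none had more than 10 counts in a library. Krt19 passed as lower without control replicate 1.

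The lamins went in opposite directions. Lmna, whose reads for lamins A and C were summed in the table, stood at 1102 and 1150.5 CPM in the c-FOS libraries and at 711.3 and 667.9 CPM in the control libraries. Both c-FOS libraries were above both control libraries. The log2 fold change was 0.71 ± 0.04 (SE), a ratio of 1.63 (edgeR, quasi-likelihood, Benjamini-Hochberg adjusted p = 2.25e-09).

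Lmnb1 fell most among the lamins. It stood at 31.1 and 27.8 CPM in the c-FOS libraries and at 99.2 and 113.3 CPM in the control libraries. Even the higher c-FOS library was far below the lower control library. The log2 fold change was -1.85 ± 0.07 (SE), 3.62-fold lower (edgeR, quasi-likelihood, Benjamini-Hochberg adjusted p = 1.85e-11), and its rank from the lowest fold change was 354 of 12791. Lmnb2 stood at 49.1 and 52.4 CPM in the c-FOS libraries and at 71.8 and 72.0 CPM in the control libraries, again without overlap. Its log2 fold change was -0.50 ± 0.05 (SE), 1.42-fold lower (edgeR, quasi-likelihood, Benjamini-Hochberg adjusted p = 5.1e-07).

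Per length, the summed lamin transcripts were higher in c-FOS cells, at 356.8 and 371.8 RPKM in the c-FOS libraries against 294.9 and 286.6 RPKM in the control libraries. The B-type share of this sum averaged 6.68 ± 0.218% in c-FOS cells and 21.3 ± 1.76% in control cells (SD, n = 2 each), a difference of -14.6 percentage points (exact two-sided permutation test over 4 libraries, p = 0.333, the smallest possible). The ratio of Lmna to Lmnb1 was 31.8 and 37.1 in the c-FOS libraries and 6.42 and 5.28 in the control libraries. The ratio of Lmnb1 to Lmnb2 was 0.751 and 0.629 in the c-FOS libraries and 1.64 and 1.87 in the control libraries. These ratios within a library do not depend on the scaling between libraries.

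Lmnb1 fell, and so did a list of genes of dividing cells. All 15 genes of a proliferation list were tested and all 15 fell, with a median log2 fold change of -2.12, beside 33.3% of all genes lower. The lowest were Top2a, a DNA topoisomerase of dividing cells, by 2.50 on the log2 scale, and the mitotic kinase gene Aurkb, by 2.50 as well. The smallest falls were those of the replication clamp gene Pcna, by 0.81, and of the thymidylate synthase gene Tyms, by 1.14. The fall of Lmnb1 lay inside this range. The genes with the profile nearest to Lmnb1 were Mad2l1, a spindle checkpoint gene, at a log2 distance of 0.0293, the centromere gene Cenpi at 0.0361, the replication helicase gene Mcm5 at 0.0647, the histone chaperone gene Asf1b at 0.0684 and the engulfment adaptor gene Gulp1 at 0.0823. As for Vim, such a distance reads mainly the size of the difference. The summed level of the proliferation list was 423.1 and 368.6 CPM in the c-FOS libraries and 1491 and 1727 CPM in the control libraries. Its part in the Lmnb1 difference was not tested.

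**Figure D4:**
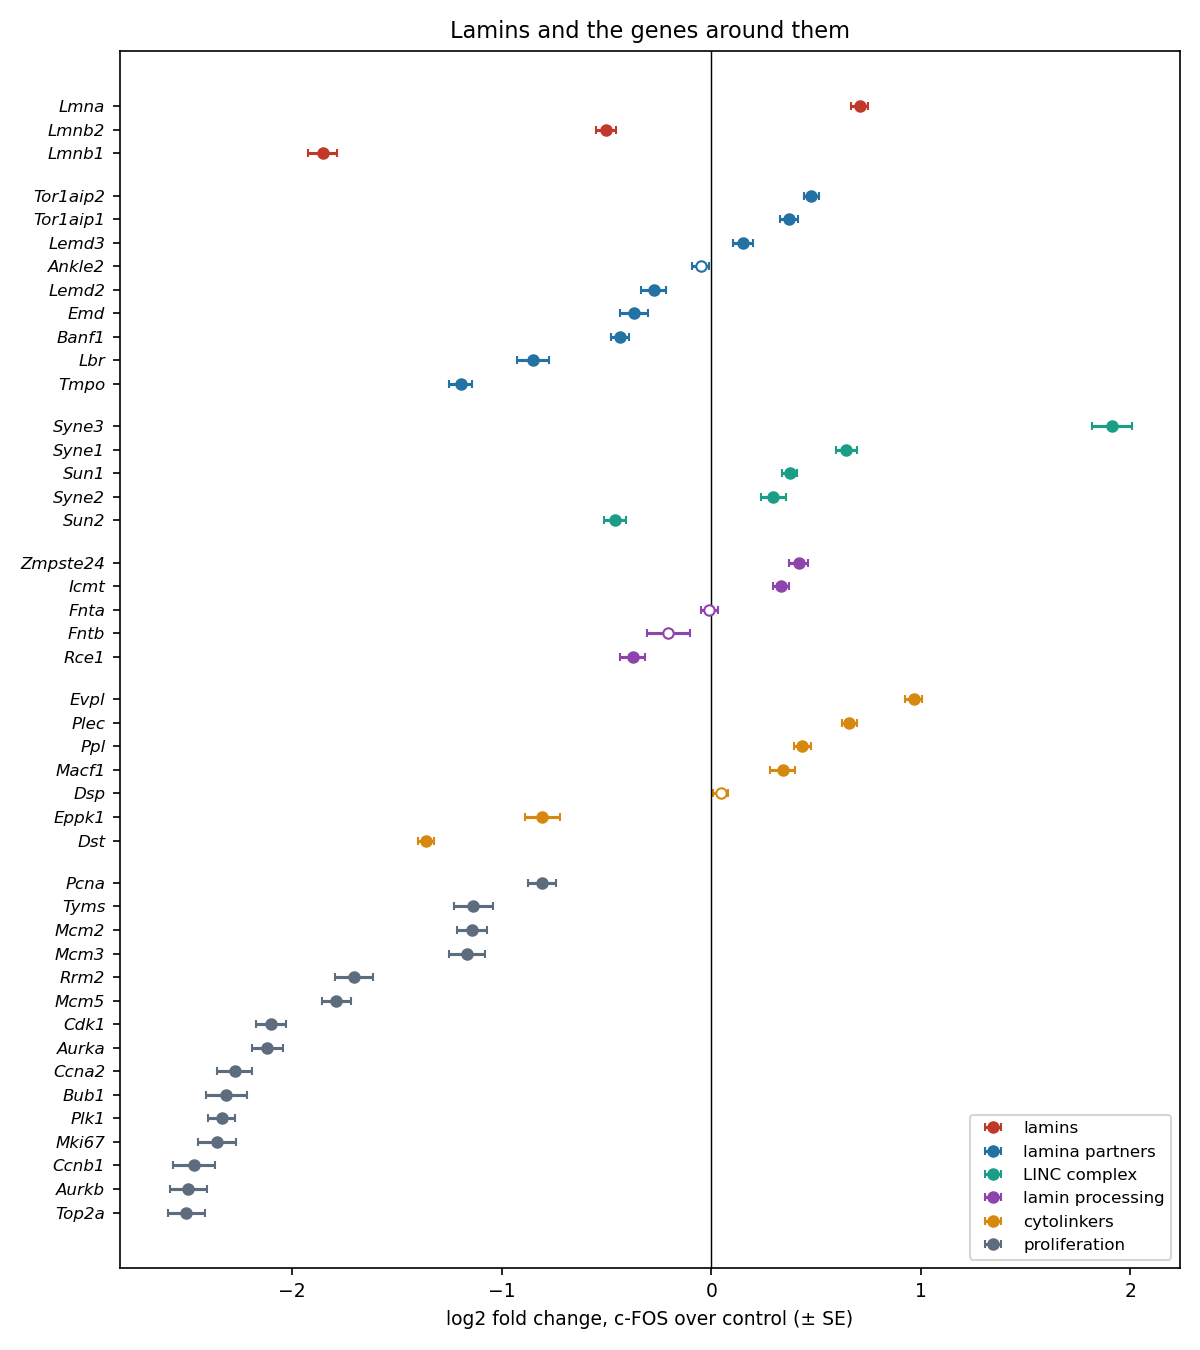
Log2 fold change, c-FOS over control, with SE (x axis) of the tested genes of 6 lists, ordered within each list; filled points passed the adjusted p of 0.05 and open points did not. Lmnb1 lies within the range of the proliferation genes, and Tmpo and Lbr are the lowest of the lamina partners.

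Proteins that hold the lamina to chromatin and membrane split in both directions. Of 9 lamina partner genes, 3 rose, 5 fell and 1 did not pass, beside 33.8% of all genes higher and 33.3% lower. The median log2 fold change was -0.28. Tmpo, which encodes the LAP2 family of lamin-binding proteins, averaged 106.4 ± 5.88 CPM in c-FOS cells and 243.7 ± 21.0 CPM in control cells (SD, n = 2 each). Lbr, the receptor for B-type lamins in the inner nuclear membrane, averaged 33.6 ± 3.68 CPM in c-FOS cells and 60.4 ± 5.60 CPM in control cells. The torsin-binding lamina proteins of Tor1aip2 and Tor1aip1 rose, by 0.48 and 0.37 on the log2 scale. The rest were named after their values were seen. Banf1, which bridges DNA and the envelope, fell by 0.44, the emerin gene Emd by 0.37 and Lemd2 by 0.28 on the log2 scale. Lemd3 rose by 0.15, a call that was lost with library totals, upper-quartile factors, DESeq2 and without c-FOS replicate 2. Ankle2 did not pass (-0.05), but passed as lower with library totals and upper-quartile factors.

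The LINC complex, which ties the lamina through the nuclear envelope to the cytoskeleton, had members in both directions. Of 6 genes, 5 were tested, 4 rose and 1 fell, beside 33.8% of all genes higher and 33.3% lower (median log2 fold change 0.37). Syne3, whose product nesprin-3 binds plectin and through it intermediate filaments, had the greatest rise. It averaged 19.6 ± 0.436 CPM in c-FOS cells and 5.21 ± 0.144 CPM in control cells (SD, n = 2 each). Syne1 rose by 0.64, Sun1, an inner membrane anchor, by 0.37 and Syne2 by 0.30 on the log2 scale. Sun2, the other anchor, fell by 0.46, with 184.0 ± 10.2 CPM in c-FOS cells and 253.2 ± 21.3 CPM in control cells. Syne4 did not pass the filter, with 4 and 0.5 counts in the c-FOS libraries and 1.5 and 11.5 in the control libraries, and it passed as lower without control replicate 1.

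Enzymes that process lamin tails showed small differences. Of 5 genes, 2 rose, 1 fell and 2 did not pass, beside 33.8% of all genes higher and 33.3% lower. The median log2 fold change was -0.01. Zmpste24, the protease that matures lamin A, rose by 0.42 and the methyltransferase gene Icmt by 0.33 on the log2 scale, while the protease gene Rce1 fell by 0.38. The farnesyltransferase subunit genes Fnta (-0.01) and Fntb (-0.21) did not pass, and both passed as lower with library totals, Fntb also with upper-quartile factors and without control replicate 2.

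Cytolinkers, which cross-link filaments to each other and to junctions, also went both ways. Of 7 genes, 4 rose, 2 fell and 1 did not pass, beside 33.8% of all genes higher and 33.3% lower. The median log2 fold change was 0.34. Plec, which encodes plectin, a linker of vimentin and keratin filaments, averaged 1178 ± 11.7 CPM in c-FOS cells and 746.9 ± 14.7 CPM in control cells (SD, n = 2 each). The cornified envelope plakins Evpl and Ppl rose by 0.97 and 0.43 and the microtubule-actin linker Macf1 by 0.34 on the log2 scale. Dst, whose epithelial product anchors keratins at hemidesmosomes, averaged 1724 ± 39.2 CPM in c-FOS cells and 4429 ± 7.50 CPM in control cells, and the epiplakin gene Eppk1 fell by 0.81 on the log2 scale. Dsp, which encodes desmoplakin of desmosomes, did not pass (0.04). It passed as lower with library totals (-0.09) and as higher without control replicate 1 (0.08).

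Kinases known to phosphorylate vimentin fell into those of mitosis and the rest. Of 7 genes, 4 rose and 3 fell, beside 33.8% of all genes higher and 33.3% lower (median log2 fold change 0.19). The 3 that fell were the mitotic kinase genes Aurkb (-2.50), Plk1 (-2.34) and Cdk1 (-2.10), which also stand on the proliferation list. Rock2 rose by 0.54, Rock1 by 0.25, Pak1 by 0.23 and Akt1 by 0.19 on the log2 scale, and Akt1 did not pass with library totals.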

How the data were processed

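The authors deposited 1 table of unnormalized expected counts per gene symbol and library, in steps of 0.5, with a length per gene. Per the series design text and the submitters' processing notes, reads were aligned with TopHat to mm9 and analysed with HOMER, and DESeq2 was among the tools. For versions, gene annotation and strand setting: not given in the sources used here. Per the labels' protocols, total RNA went into Illumina TruSeq libraries.

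Counts were rounded (0.5 upwards). For 2 repeated symbols the row with the higher total was used. The test was edgeR 4.0.16 (R 4.3.3), quasi-likelihood, two-sided, with TMM factors, filterByExpr (minimum count 10) and Benjamini-Hochberg adjustment over all 12791 genes, at 0.05. CPM values use effective library sizes, and RPKM values use deposited lengths and totals. SE values derive from the F statistic unless DESeq2 is named. The prior degrees of freedom were 11.3, beside 2 residual ones. DESeq2 1.42.0 was an alternative. Replicates differed by more than sampling noise (chi-square per degree of freedom 1.93 in c-FOS and 4.82 in control), so each library counted as 1 sample. Totals of 28405433 to 32465409 counts set the precision, and 1 count is worth 0.0319 to 0.0359 CPM.

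The members and lists were chosen with earlier results of these data known. All members are named; of lists of up to 7 genes any gene could be named, and of longer lists the 2 tested genes with the highest and the 2 with the lowest fold change, plus the 5 genes nearest to Vim and to Lmnb1. Exceptions are marked, and marker genes at or near 0 are named for that reason. Overlapping genes come from GENCODE M21 (GRCm38).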

Additional observations from a re-analysis of the deposited data

How the results depend on the processing

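The 5 tested members kept their direction and passed in all 12 alternatives: RLE factors, library totals, upper-quartile factors, no filter, a minimum count of 50, DESeq2, no rounding, the replicate number as a block, and leaving out each library in turn. The log2 fold change lay between 9.19 and 9.55 for Vim, 0.57 and 0.76 for Lmna, -1.99 and -1.75 for Lmnb1, -0.64 and -0.45 for Lmnb2, and -0.57 and -0.41 for Synm. Over all genes, leaving out a library gave 7179 to 8878 calls and the block gave 8464, against 8589. DESeq2 called 7102 of the 14080 genes it tested, and edgeR with library totals called 9095 of 12791. Same-numbered libraries did not deviate together (correlation across genes -0.066). With 2 libraries per group, this cannot show whether the replicate numbers mark a pairing. The block changed no call of a member. Without division by length, the Vim share differed by 3.40 percentage points between c-FOS and control cells, against 3.33, and leaving out a library gave 3.27 to 3.39. Leaving out a library gave -15.8 to -13.4 percentage points for the B-type share. With 39 control counts, the fold of Vim is limited by counting in control cells, and a level below about 0.05 CPM in a group was not detectable.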
